A study of Mus musculus with 8 samples.

Results

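Sterol synthesis genes and the regulators of sterol regulatory element-binding protein 2 (SREBP2) were followed in the histone acetylation of mouse microglia. The 7 genes were Srebf2, Scap, Insig1, Hmgcs1, Idi1, Fdft1 and Sqle. Their regions were found as the entries of the deposited table whose nearest-gene symbol is one of these names, which gave 31 of 129304 regions and 7 of 18707 genes. The table had 8 regions for Srebf2, 7 for Insig1, 5 for Scap, 3 each for Hmgcs1, Idi1 and Fdft1, and 2 for Sqle. Wild-type (WT) and GrnKO mice on C57BL/6, aged 2 years, were compared. GrnKO is the knockout of Grn, the gene of progranulin, which cells secrete and deliver to lysosomes. Nuclei positive for PU.1, a myeloid transcription factor, and negative for OLIG2 and NEUN were sorted from frozen hemibrain tissue, with 2 mice pooled per replicate and 2 replicates per genotype. The labels name no treatment and no other allele in either genotype. Each replicate had a chromatin immunoprecipitation library for acetylated lysine 27 of histone H3 (H3K27ac), which marks promoters and enhancers in use, and an input library of chromatin without immunoprecipitation.

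SREBP2, the product of Srebf2, is made as a membrane protein of the endoplasmic reticulum. When sterols are scarce, the escort protein SCAP carries it to the Golgi, where proteases release the part that enters the nucleus. When sterols are plentiful, INSIG1 holds SCAP and SREBP2 in the endoplasmic reticulum. In the nucleus SREBP2 binds sterol regulatory elements, often beside CCAAT boxes bound by NF-Y and GC boxes bound by Sp1, and raises transcription of the enzymes of cholesterol synthesis, of Insig1 and of Srebf2 itself. Hmgcs1 makes HMG-CoA at the entry to the mevalonate pathway, Idi1 isomerises isopentenyl diphosphate, Fdft1 makes squalene as the committed step to sterols, and Sqle oxidises squalene. Microglia make cholesterol and also take it up with the myelin and cell debris that they clear through lysosomes.

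The 250 bases before the start site are shown for the members with a RefSeq promoter entry (GRCm38.p6, all on the + strand), because each lies in a region tested for H3K27ac. Capitals mark CACNCCAC, the core of the sterol regulatory element, ATCACNCCA, its first letters, and CCAAT, which reads ATTGG on the other strand. N is any base and both strands were searched. The letters ATCACNCCA were added to the search after the sequences had been read, and they overlap the core where both occur. The start of Insig1 (chr5:28071162-28071411) lies in a region whose H3K27ac rose in GrnKO, and the starts of Srebf2 (chr15:82147019-82147268), Hmgcs1 (chr13:119690101-119690350), Idi1 (chr13:8885356-8885605) and Scap (chr9:110333106-110333355) lie in regions that did not pass the test.
Insig1: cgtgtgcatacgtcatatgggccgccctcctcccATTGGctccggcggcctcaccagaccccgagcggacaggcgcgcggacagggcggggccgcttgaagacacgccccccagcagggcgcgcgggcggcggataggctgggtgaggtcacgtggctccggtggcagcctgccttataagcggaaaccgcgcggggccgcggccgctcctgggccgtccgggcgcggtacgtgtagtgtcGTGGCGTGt
Srebf2: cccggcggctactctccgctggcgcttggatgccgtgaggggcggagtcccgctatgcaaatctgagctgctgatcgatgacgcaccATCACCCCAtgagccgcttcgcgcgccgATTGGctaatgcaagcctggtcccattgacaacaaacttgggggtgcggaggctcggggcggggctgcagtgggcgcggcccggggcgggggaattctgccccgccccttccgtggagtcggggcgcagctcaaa
Hmgcs1: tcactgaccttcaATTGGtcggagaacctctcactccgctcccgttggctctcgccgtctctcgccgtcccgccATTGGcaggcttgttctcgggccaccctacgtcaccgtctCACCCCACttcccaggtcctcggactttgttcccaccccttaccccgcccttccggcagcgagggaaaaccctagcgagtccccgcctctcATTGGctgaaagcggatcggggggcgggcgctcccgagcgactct
Idi1: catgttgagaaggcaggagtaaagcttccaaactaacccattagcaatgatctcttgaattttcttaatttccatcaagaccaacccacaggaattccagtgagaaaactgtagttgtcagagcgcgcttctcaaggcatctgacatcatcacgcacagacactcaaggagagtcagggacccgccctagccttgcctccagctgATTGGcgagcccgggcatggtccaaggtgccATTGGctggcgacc
Scap: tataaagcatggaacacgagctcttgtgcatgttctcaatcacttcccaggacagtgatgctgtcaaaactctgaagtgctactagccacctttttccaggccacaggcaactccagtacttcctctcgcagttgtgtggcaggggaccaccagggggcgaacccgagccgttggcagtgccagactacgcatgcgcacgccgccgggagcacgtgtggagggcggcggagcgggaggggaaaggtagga
The core CACNCCAC was found in Hmgcs1, 136 to 129 bases before the start, and on the other strand in Insig1, 9 to 2 bases before it. Srebf2 held ATCACCCCA 163 to 155 bases before its start. Of 32851 RefSeq windows of this length, 5.29% held the core and 0.712% held ATCACNCCA. The full sterol regulatory element, searched by its complete letters, was in 0.192% of the windows and in none of the 6 windows of these 5 genes. CCAAT was in 33.8% of the windows and in 4 of the 5 sequences shown, with 3 copies in Hmgcs1, 2 in Idi1, 1 each in Insig1 and Srebf2 and none in Scap. The Sp1 letters GGGCGG, which are not capitalised, were in 32.7% of the windows and in each of the 5 sequences shown. Scap has 2 RefSeq windows, of which the one nearer the start of Scap in the table is shown, and the other held none of these letters. Over the 6 windows of the 5 genes, 2 held the core, 1 held ATCACNCCA, 4 held CCAAT and 5 held the Sp1 letters. A match of letters describes the sequence and does not show that a factor binds there.

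The deposited values are tags, a count of aligned reads in which 2 read ends make 1 tag, in each 800 bp region. They were scaled by the authors to 10000000 tags per library. They are called scaled tags here, and the H3K27ac values were further divided by a library factor (TMM) that balances the tested regions. The H3K27ac libraries held 15491642.5 to 20030832 tags and the inputs 4078179 to 14415969. The listed regions took 49.4% of the tags in WT replicate 1 and 63.3% to 65.7% in the other 3 H3K27ac libraries, against 4.02% to 4.79% in the inputs. A floor of 3 tags corresponds to 1.498 to 1.94 scaled tags in the H3K27ac libraries before the library factor, and covers counting error only. Grn itself, summed over its 10 regions, had 2291 and 1871 scaled tags in WT and 157 and 162 in GrnKO, which went with the labels (log2 change -3.69, SE 0.14, limma adjusted p = 8.59e-09).

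The sorted nuclei carried the microglial marks. The 7 microglial marker genes together held 39916 and 42520 scaled tags in WT and 33862 and 35306 in GrnKO. Of them 4 were called lower in GrnKO by limma at an adjusted p under 0.05, among them Cx3cr1, Tmem119 and Csf1r. Regions of 5 of 6 oligodendrocyte lineage markers held 1985 and 1996 against 2502 and 2644, mostly at Mbp, which rose, while Mog fell. Olig1 reached 7.43 and Olig2 16.0 at most in any H3K27ac library, and Sox10 had no region. Of 3 endothelial markers, which summed to 805 and 886 in WT and 1207 and 1299 in GrnKO, Flt1 rose and Cldn5 stayed between 21.1 and 24.2. The 4 astrocyte markers ranged from 3160 to 3450, nearly all at Slc1a3, with Gfap at 16.8 or less, the 4 border macrophage markers from 643 to 666, and the 5 neuronal markers from 149 to 272, with Syt1 lower in GrnKO. The part of these shifts in the results on the sterol genes was not tested. In sorted pools, a different share of a cell type and a different acetylation per nucleus cannot be told apart.

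Insig1 and Fdft1 gained H3K27ac in GrnKO microglia and Scap lost it, while Srebf2, Hmgcs1, Sqle and Idi1 had higher means in GrnKO that did not pass the test. The sums over all regions of a gene were compared with limma on log2(sum + 1), a scale that understates changes of low values, and called at a Benjamini-Hochberg adjusted p under 0.05 over all 15380 tested genes. Of the 7 genes, 2 were called higher and 1 lower, or 42.9%, where 14.5% of all tested genes were called, 8.59% higher and 5.88% lower. The 7 genes were chosen with earlier results of these data known. Such shares, here and for regions below, therefore describe these genes and are not a test of the group. Both GrnKO sums lay above both WT sums in 5 of the 7 genes, where 25.4% of all tested genes did so, and below in 1, where 29.4% did so. The log2 change was positive in 6 of the 7 and in 45.9% of all tested genes. The median log2 change of the 7 was 0.62, and that of all tested genes was -0.05. The share of calls that were higher over all genes was 59.4%, and 90.8% under the authors' scaling alone, which moved the median change of all genes to 0.18. Under that scaling 2 of the 7 were called, both higher, where 11.7% of all tested genes were called, and leaving out 1 library at a time gave between 1 and 5 calls, the lowest without GrnKO replicate 1, where 5.04% of all tested genes were called, and the highest without WT replicate 1, where 21.1% were.

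**Figure D1:**
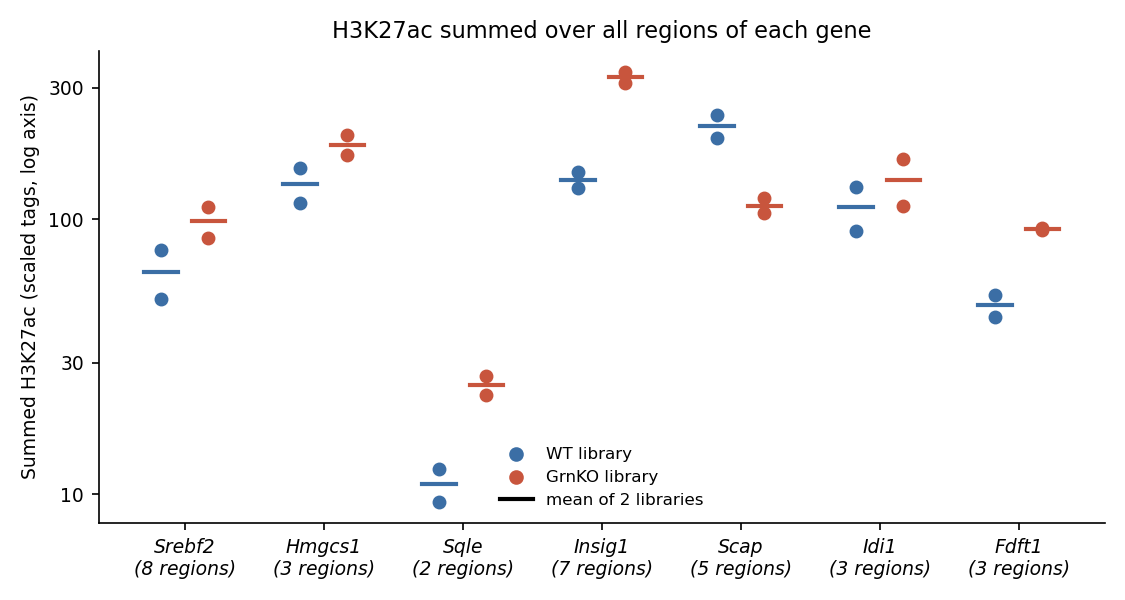
H3K27ac summed over all regions of each of the 7 genes, in scaled tags on a log axis. Each point is 1 library, WT in blue and GrnKO in red, and bars are means of 2 libraries. The 2 GrnKO points lie above both WT points for 5 genes, overlap them for Idi1 and lie below them for Scap.

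Per 800 bp region, which sets genes with different numbers of regions on 1 scale, the mean level in WT was highest at Hmgcs1 (44.6 ± 9.002 scaled tags, SD, n = 2), Scap (43.6 ± 6.09) and Idi1 (36.9 ± 9.52), whose library values overlapped. Insig1 (19.9 ± 1.82) and Fdft1 (16.2 ± 2.12) came next, with no overlap between them, and Srebf2 (8.03 ± 2.33) and Sqle (5.42 ± 1.03) were lowest, with libraries that did not overlap. In GrnKO the order of mean levels was Hmgcs1 (62.2 ± 7.25), Insig1 (46.8 ± 2.87), Idi1 (46.1 ± 12.6), Fdft1 (30.7 ± 0.39), Scap (22.4 ± 1.99), Sqle (12.5 ± 1.44) and Srebf2 (12.3 ± 2.26). Insig1 and Idi1 overlapped there, as did Sqle and Srebf2. Scap thus went from a level that overlapped the highest gene in WT to a level between Fdft1 and Sqle in GrnKO. These levels depend on how many weak regions the table assigns to a gene, such as the 6 untested regions of Srebf2. Regions that overlap also count the same tags more than once. At Hmgcs1 the start region had a WT mean of 16.9, and 2 overlapping regions past the end of the gene had 53.3 and 63.6. The order of the genes is thus not an order of acetylation at their starts.

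Regions were tested one by one in the same way, after a filter that kept 80728 regions with enough tags in either genotype. Of the 31 regions of the 7 genes, 21 passed the filter, and the other 10 reached at most 8.60 scaled tags in any H3K27ac library. Among the 21, 5 were called higher in GrnKO and 2 lower, or 33.3%, where 9.71% of all tested regions were called, 6.8% higher and 2.92% lower. The log2 change was positive in 16 of the 21 and in 49.9% of all tested regions. Of the 5 higher regions 4 belong to Insig1 and 1 to Fdft1, and both lower regions belong to Scap. Some of the 21 regions overlap each other and share reads, so they are not separate observations. Over all regions 70.0% of calls were higher, and 95.2% under the authors' scaling alone, which called 5 of the 21, all higher, and 8.56% of all tested regions. Without GrnKO replicate 1 limma called 0 of the 21 and without GrnKO replicate 2 also 0, with 7 and 9 at an unadjusted p under 0.05. With all 4 libraries 9 of the 21 had an unadjusted p under 0.05, where 23.9% of all tested regions did. In the fits without a GrnKO library 12.1% and 13.9% of all tested regions had an unadjusted p under 0.05, and 1351 and 1880 were called in place of 7842. Without the filter on low values limma called 0 of the 129304 regions, with 9 of the 31 and 15.5% of all at an unadjusted p under 0.05.

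**Figure D2:**
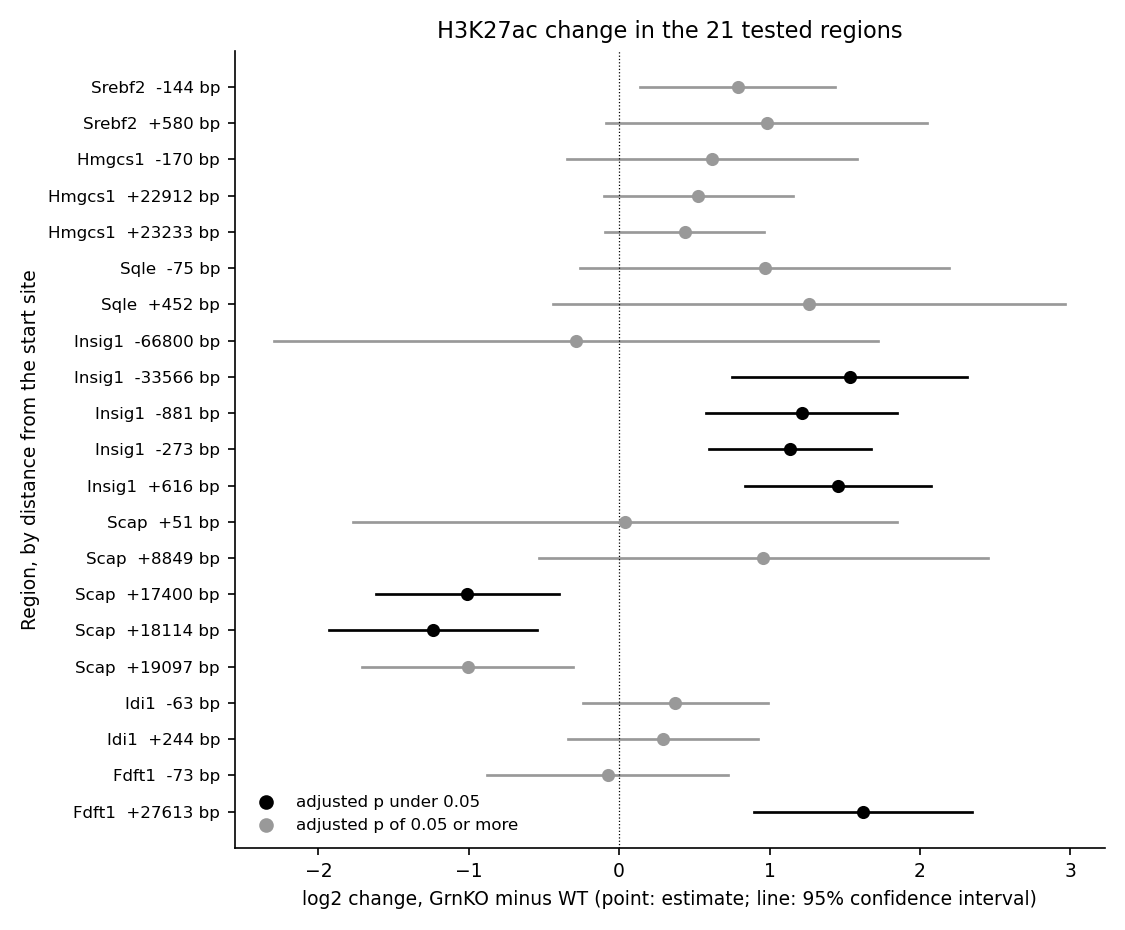
Log2 change in H3K27ac, GrnKO minus WT, for the 21 tested regions, named by gene and distance from the start site. Points are limma estimates, lines 95% confidence intervals, and black marks an adjusted p under 0.05. The black points are 4 regions of Insig1 and 1 of Fdft1 to the right of 0 and 2 of Scap to the left.

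All 12 regions within 1000 bp of a start were tested. Of these 11 had a positive log2 change, 3 were called higher and none lower, and all 3 belong to Insig1. Over all 21707 tested regions this close to a start, 5.18% were called, 3.57% higher and 1.61% lower, and 49.4% had a positive change. Both GrnKO values lay above both WT values in 7 of the 12 and below them in none, where 23.7% of all such regions lay above and 23.7% below. Those 7 belong to Insig1, Srebf2 and Sqle only. Regions at the starts of Insig1, Srebf2, Sqle and Idi1 overlap and share reads, so the 12 are not separate observations. The log2 changes of the 12 ran from -0.08 to 1.45 with a median of 0.88. Of the 19 regions farther away 9 were tested, 2 were called higher and 2 lower, 5 had a positive change, and the median was 0.43 over a range from -1.24 to 1.62. Of all 59016 tested regions this far from a start, 11.4% were called, 7.99% higher and 3.4% lower, and 50% had a positive change. Gene sums restricted to the regions within 1000 bp of the start called 1 of the 7 genes, Insig1, where 5.23% of all genes tested in that fit were called.

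Srebf2, the gene of the transcription factor itself, had a summed H3K27ac of 77.4 scaled tags in WT replicate 1 and 51.1 in WT replicate 2, and of 111 and 85.4 in GrnKO replicates 1 and 2. Values of each genotype are given in this order throughout. Both GrnKO sums were above both WT sums, with means of 64.3 ± 18.6 and 98.1 ± 18.0 (SD, n = 2). The log2 change of 0.62 (SE 0.29, 95% interval -0.002 to 1.24) did not pass the test (adjusted p = 0.187). It depended on the libraries: 0.92 (adjusted p = 0.0112) without WT replicate 1, 0.33 (0.426) without WT replicate 2, 0.43 (0.733) without GrnKO replicate 1 and 0.81 (0.310) without GrnKO replicate 2. Most of the sum came from the region centred 144 bp before the start (chr15:82146725-82147525), which overlaps the promoter printed above. It held 41.5 and 31.2 scaled tags in WT and 72.7 and 54.2 in GrnKO, without overlap, a log2 change of 0.79 (SE 0.31, adjusted p = 0.121). With 1 library left out it ran from 0.58 to 0.995, with an adjusted p of 0.0230 without WT replicate 1 and of 0.179 to 0.708 in the other 3 fits. The next region, 580 bp after the start in intron 1 of 18 and over a CpG island, had 10.2 and 11.3 in WT and 28.9 and 16.8 in GrnKO (log2 change 0.98, SE 0.51, adjusted p = 0.252). These 2 regions share some bases.

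The other 6 regions of Srebf2 did not pass the filter. They lie 8504 bp before the start, in an intron of Ccdc134, and 1480 to 18248 bp after it, in intron 1. At the region 4951 bp after the start the inputs of WT replicate 2 and GrnKO replicate 2 had 33.1 and 32.7 scaled tags, more than the 0.69 to 7.04 of the H3K27ac libraries. No acetylation above input was thus measured at that region in those replicates.

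Scap, the escort that moves SREBP2 to the Golgi, fell in GrnKO. Its 5 regions summed to 240 and 197 scaled tags in WT and 105 and 119 in GrnKO. Every GrnKO value was lower than every WT value, with means of 218 ± 30.4 and 112 ± 9.97 (SD, n = 2). The log2 change was -0.95 (SE 0.20, 95% interval -1.39 to -0.51, adjusted p = 0.00678). It was -0.86 with an adjusted p of 0.0910 without GrnKO replicate 1, and -0.73 with an adjusted p of 0.0563 under the authors' scaling alone.

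The lower acetylation of Scap was measured inside the gene, while the signal at its start was too weak to tell whether it changed. All 4 regions after the first are in intron 1 of 22. At 17400 bp after the start (chr9:110350356-110351156) WT had 88.4 and 76.2 scaled tags and GrnKO 32.5 and 49.8, a log2 change of -1.01 (SE 0.29, adjusted p = 0.0342, and 0.0513 with edgeR on the recovered reads). At 18114 bp (chr9:110351070-110351870) WT had 92.7 and 52.9 and GrnKO 27.7 and 30.7, a log2 change of -1.24 (SE 0.33, adjusted p = 0.0223, and 0.106 without WT replicate 1). GrnKO was lower in both regions without overlap, and the regions share some bases. At 19097 bp (chr9:110352053-110352853) WT had 51.6 and 49.8 and GrnKO 24.04 and 25.4, also without overlap, but the change of -1.01 (SE 0.33) missed the threshold (adjusted p = 0.0659). The input of WT replicate 1 held 49.0 scaled tags at that last region, close to the H3K27ac value of the same replicate, and the other inputs 0 to 10.4. At 18114 bp the input of GrnKO replicate 1 held 24.3 scaled tags.

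The start of Scap showed little acetylation in either genotype. The region 51 bp after the start (chr9:110333007-110333807), over the promoter printed above, held 2.35 and 12.6 scaled tags in WT and 7.92 and 4.38 in GrnKO. These overlap, and the change of 0.04 (SE 0.86, adjusted p = 0.985, 95% interval -1.77 to 1.85) was negative in 5 alternatives, among them edgeR and DESeq2. The region 8849 bp after the start, a weak one, had 4.69 and 5.24 in WT and 12.7 and 8.77 in GrnKO (log2 change 0.96, SE 0.71, adjusted p = 0.451). Regions within 1000 bp of the start alone gave a sum change of 0.04 for Scap (adjusted p = 0.989), so its call rests on the intron regions.

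Insig1, which holds SCAP in the endoplasmic reticulum and is itself a target of SREBP2, had the smallest p of the 7 genes. Its 7 regions summed to 130 and 148 scaled tags in WT and 342 and 314 in GrnKO. The genotypes were well apart, with means of 139 ± 12.7 and 328 ± 20.1 (SD, n = 2), a 2.35-fold difference. The log2 change was 1.23 (SE 0.18, 95% interval 0.85 to 1.61, adjusted p = 0.000484), at place 307 when the 15380 tested genes are ordered by p. The call held in all 16 alternatives tried for this sum.

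Acetylation rose on both sides of the Insig1 start. The region centred 273 bp before it (chr5:28070739-28071539), which contains the promoter printed above, had 41.1 and 54.5 scaled tags in WT and 107 and 104 in GrnKO, a log2 change of 1.14 (SE 0.26, adjusted p = 0.00823). It was the strongest region of Insig1, with a mean above 70.9% of all tested regions. The overlapping region 881 bp before the start (chr5:28070131-28070931) had 31.7 and 27.8 in WT and 75.8 and 64.8 in GrnKO, a log2 change of 1.21 (SE 0.30, adjusted p = 0.0155). In intron 1 of 4, 616 bp after the start (chr5:28071628-28072428), WT had 25.8 and 37.7 and GrnKO 88.5 and 86.1, a log2 change of 1.45 (SE 0.29, adjusted p = 0.00387). None of these values overlapped between genotypes.

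A distal region of Insig1 rose as well. It lies 33566 bp before the start (chr5:28037446-28038246), is intergenic in the table and falls within the long noncoding RNA gene Gm35223 in the RefSeq annotation, which also spans the Insig1 start. Its values were 14.1 and 26.7 scaled tags in WT and 61.4 and 55.1 in GrnKO, a log2 change of 1.53 (SE 0.37, adjusted p = 0.0131). The region 66800 bp before the start did not follow: it had 17.6 and 1.57 in WT and 6.22 and 3.46 in GrnKO, a log2 change of -0.28 (SE 0.96, adjusted p = 0.898). The regions 76034 bp before and 22735 bp after the start held 0 to 3.39 scaled tags and were not tested. With GrnKO replicate 1 or 2 left out, the changes of the 4 called regions stayed between 1.10 and 1.61, with adjusted p from 0.0894 to 0.322.

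**Figure D3:**
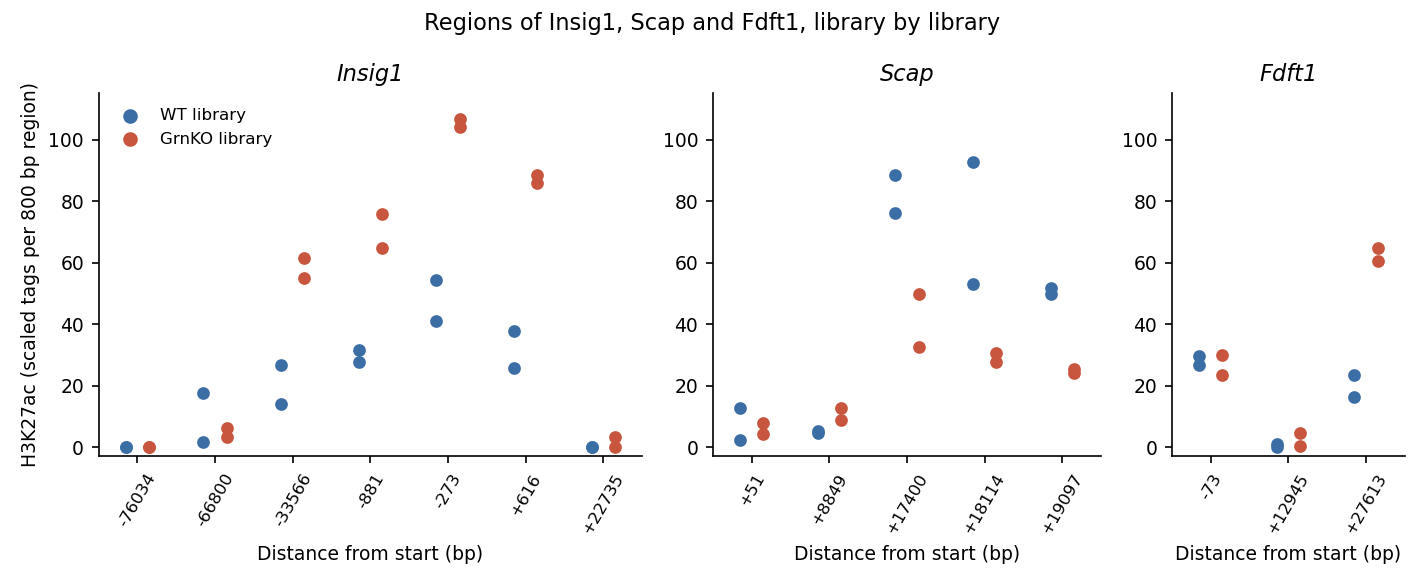
H3K27ac in scaled tags per 800 bp region at Insig1, Scap and Fdft1, by distance of the region from the start in bp. Each point is 1 library, WT in blue and GrnKO in red. GrnKO is higher around the Insig1 start, lower in intron 1 of Scap from 17400 bp on, and higher at the last region of Fdft1.

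Fdft1, squalene synthase, rose as a sum but not at its start. The sums were 44.2 and 53.2 scaled tags in WT and 92.8 and 91.1 in GrnKO, with means of 48.7 ± 6.35 and 92.0 ± 1.17 (SD, n = 2) and no overlap. The log2 change was 0.91 (SE 0.28, 95% interval 0.31 to 1.51, adjusted p = 0.0432). The call was lost without GrnKO replicate 1 (0.90, adjusted p = 0.325) and without GrnKO replicate 2 (0.92, adjusted p = 0.269). At the start, the region 73 bp before it (chr14:63177560-63178360) had 26.6 and 29.6 in WT and 23.5 and 29.99 in GrnKO. These overlap, with a log2 change of -0.08 (SE 0.38, 95% interval -0.88 to 0.72, adjusted p = 0.934) that was 0.14 under the authors' scaling alone and 0.09 without GrnKO replicate 1.

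The difference at Fdft1 came from 1 region 27613 bp after the start (chr14:63149874-63150674), in intron 7 of 7 and over a MER58A DNA repeat. It held 16.4 and 23.6 scaled tags in WT and 64.8 and 60.7 in GrnKO, a log2 change of 1.62 (SE 0.35, adjusted p = 0.00552). This was the largest change among the 21 tested regions of the 7 genes. By the RefSeq annotation the centre of the region lies 18 bp from a microRNA gene, Gm51283, and 4351 bp from the body of Ctsb, which encodes the lysosomal protease cathepsin B. Ctsb, looked up after the region's values were seen, had 1926 and 2585 scaled tags in WT and 3492 and 3454 in GrnKO over its own 15 regions (log2 change 0.64, SE 0.11, adjusted p = 0.00214). The table assigns a region by the nearest start, and which gene this one acts on was not tested. Within 1000 bp of the start alone the Fdft1 change was -0.08 (adjusted p = 0.953).

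Hmgcs1, the synthase at the entry to the pathway, had sums of 153 and 114.7 scaled tags in WT and 202 and 171 in GrnKO. The GrnKO libraries were both higher, with means of 134 ± 27.01 and 187 ± 21.8 (SD, n = 2). The log2 change of 0.49 (SE 0.21, 95% interval 0.02 to 0.95) did not pass the test (adjusted p = 0.162). It was 0.69 (adjusted p = 0.0132) without WT replicate 1, 0.28 (0.370) without WT replicate 2, 0.37 (0.675) without GrnKO replicate 1 and 0.60 (0.317) without GrnKO replicate 2. The promoter region 170 bp before the start (chr13:119689781-119690581) had 12.9 and 20.95 in WT and 33.9 and 19.6 in GrnKO, which overlap (log2 change 0.62, SE 0.46, adjusted p = 0.452, and 0.24 to 0.999 with 1 library left out). Most of the sum came from 2 overlapping regions past the end of Hmgcs1, within intron 3 of 3 of Nim1k. The stronger of them, 23233 bp after the start (chr13:119713184-119713984), had 71.2 and 56.0 in WT and 90.8 and 81.0 in GrnKO, a log2 change of 0.43 (SE 0.25, adjusted p = 0.312). The other, at 22912 bp, had 68.8 and 37.7 in WT and 77.2 and 70.6 in GrnKO (0.53, SE 0.30, adjusted p = 0.304).

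Idi1, the isomerase, showed overlapping genotypes. Its sums were 131 and 90.6 scaled tags in WT and 165 and 111 in GrnKO, with means of 111 ± 28.6 and 138 ± 37.8 (SD, n = 2). The log2 change was 0.31 (SE 0.26, 95% interval -0.25 to 0.87, adjusted p = 0.499, and a change of 0.03 to 0.59 with 1 library left out). Nearly all of the signal lay in 2 overlapping regions at the start. At 63 bp before the start (chr13:8885143-8885943) WT had 63.7 and 41.9 and GrnKO 78.1 and 57.9 (log2 change 0.37, SE 0.29, adjusted p = 0.484). At 244 bp after it (chr13:8885450-8886250), in exon 1 of 5, WT had 67.3 and 44.3 and GrnKO 84.0 and 53.5 (log2 change 0.29, SE 0.30, adjusted p = 0.614). At both regions the gap between the libraries of a genotype was larger than the difference of the means.

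Sqle, squalene epoxidase, had the lowest acetylation of the 7 genes in sum, 9.39 and 12.3 scaled tags in WT and 22.9 and 26.99 in GrnKO. The genotypes did not overlap, with means of 10.8 ± 2.07 and 24.95 ± 2.89 (SD, n = 2). The log2 change of 1.14 was close in size to that of Insig1, but its SE was 0.52 (95% interval 0.02 to 2.25) and it did not pass the test (adjusted p = 0.176). The region 75 bp before the start (chr15:59314617-59315417) had 6.65 and 8.64 in WT and 13.9 and 18.0 in GrnKO (log2 change 0.97, SE 0.58, adjusted p = 0.337). The overlapping region 452 bp after it (chr15:59315144-59315944), in exon 1 of 11, had 2.74 and 3.67 in WT and 9.05 and 8.997 in GrnKO (log2 change 1.26, SE 0.81, adjusted p = 0.371). The WT values of this region are near the floor of 3 tags.

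The inputs over the 7 genes held few tags except at Srebf2 and Scap. They were shallow: a floor of 3 tags corresponds to 7.36 scaled tags in the input of WT replicate 1 and 6.12 in that of GrnKO replicate 2. Those 2 inputs held 0 in 91.3% and 81.9% of all listed regions. Input values near these floors do not measure how low the background was. Summed input signal ranged from 0 to 1.02 scaled tags at Idi1, 0 to 4.16 at Sqle, 0 to 5.35 at Fdft1, 0 to 8.02 at Hmgcs1 and 0 to 9.36 at Insig1. At Scap it was 49.0 and 8.02 in WT and 48.6 and 0 in GrnKO, and at Srebf2 0 and 56.7 in WT and 10.8 and 34.7 in GrnKO.

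Of 26 other genes of sterol synthesis, SREBP processing and sterol uptake or transport, 25 had regions and were tested, 1 rose in GrnKO (Npc1) and none fell, where 14.5% of all tested genes were called, 8.59% higher and 5.88% lower. At an unadjusted p under 0.05 the count was 5 of 25, where 27% of all tested genes lay. Their log2 changes ran from -0.63 to 0.87 with a median of -0.002, and 12 were positive, where 45.9% of all tested genes were. Both GrnKO sums lay above both WT sums in 6 and below them in 6, where 25.4% of all tested genes lay above and 29.4% below. Npc1, which exports cholesterol from lysosomes, had 767 and 628 scaled tags in WT and 941 and 1051 in GrnKO (log2 change 0.52, SE 0.13, adjusted p = 0.0151). Its call was lost without GrnKO replicate 1 (adjusted p = 0.0586) and without GrnKO replicate 2 (adjusted p = 0.188). With 1 library left out, limma called 0 of the 25 without GrnKO replicate 1 or 2 (1 and 4 at an unadjusted p under 0.05), 3 without WT replicate 1 and 6 without WT replicate 2. Over all tested genes the shares called in those fits were 5.04%, 6.78%, 21.1% and 24.2%, so the counts moved with the whole table.

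Among the 17 synthesis genes none was called, where 14.5% of all tested genes were. Both GrnKO sums lay above both WT sums in 2 of them and below in 4 (Ggps1, Tm7sf2, Nsdhl and Ebp, named after their values were seen), where 25.4% of all tested genes lay above and 29.4% below. The change was positive in 8 of the 17, where 45.9% of all tested genes were positive, and the median was -0.01. The processing genes were not called: Insig2, the paralog of Insig1, had a change of -0.002 (SE 0.16), Srebf1 0.40 (SE 0.18), and the SREBP proteases Mbtps1 and Mbtps2 -0.12 (SE 0.27) and 0.36 (SE 0.17).

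**Figure D4:**
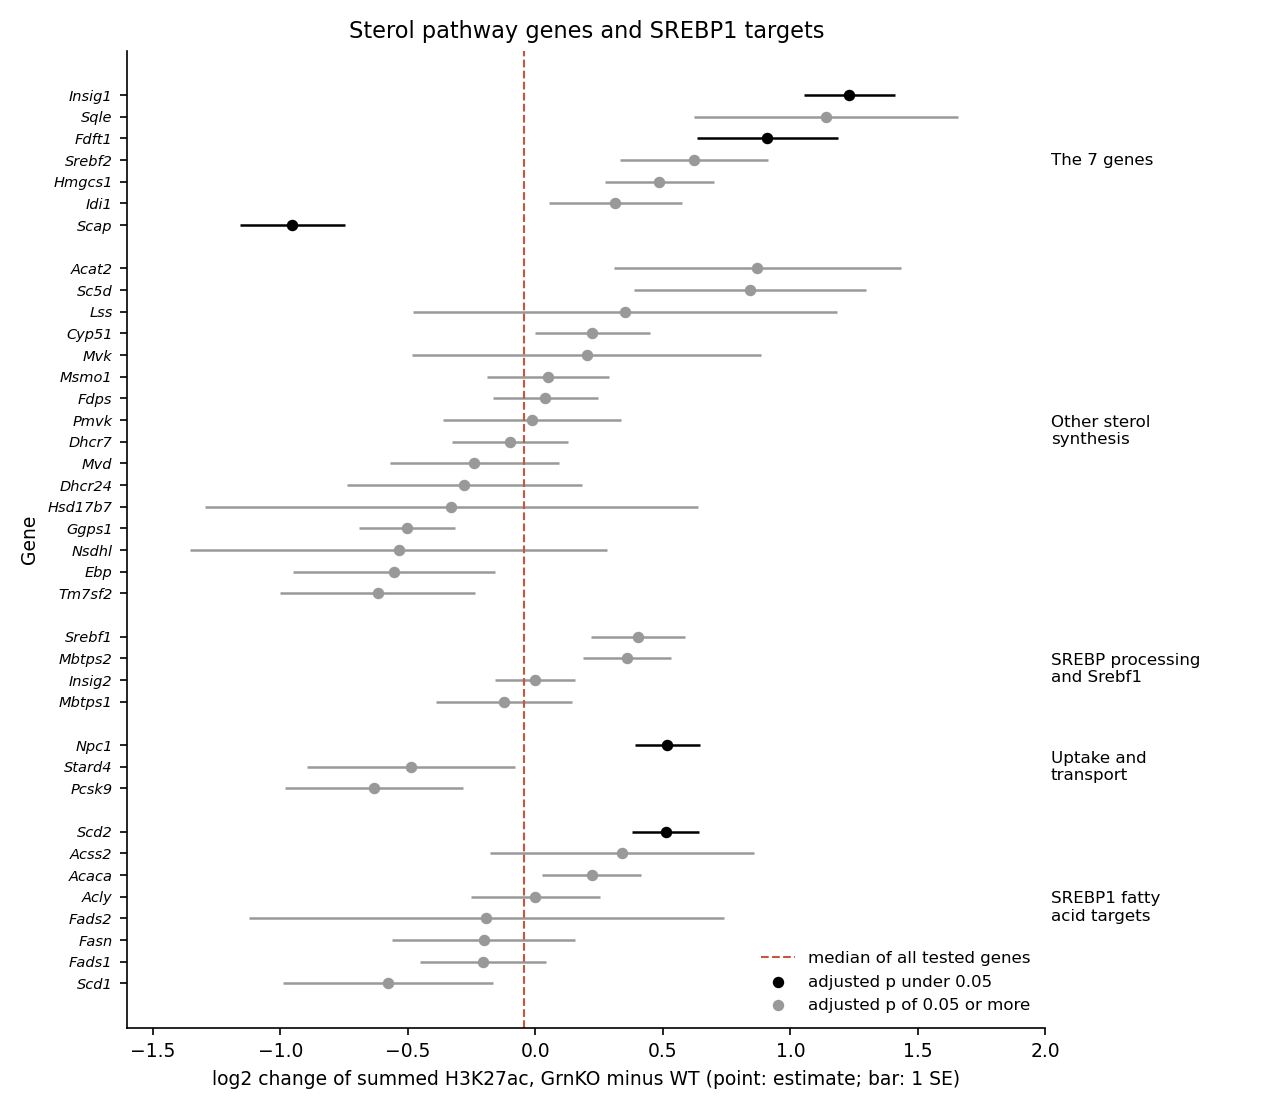
Log2 change of summed H3K27ac, GrnKO minus WT, for the 7 genes, most of the other sterol pathway genes and the SREBP1 fatty acid targets. Points are limma estimates, bars 1 SE, black marks an adjusted p under 0.05, and the dashed line is the median of all tested genes. Black points are Insig1, Fdft1, Scap, Npc1 and Scd2, and the other synthesis genes lie on both sides of the line.

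Among the 3 genes most like Srebf2 over the 4 libraries, by Euclidean distance in log2(sum + 1), were Pdgfrb (0.13) and Ifitm2 (0.16). The genes most like Insig1 were Blvra (0.24), Vrk3 (0.25) and Plekhm1 (0.26). With 4 libraries such distances describe level and difference only.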

How the data were processed

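The deposited table holds a signal: per the file headers, the authors counted tags in a merged list of regions, each 800 bp wide, and scaled each library to 10000000 tags. The submitters' processing notes name Bowtie2, HOMER, DESeq2 and mm10 without roles or versions, and duplicate handling is not given in the sources used here. Coordinates are the table's, read as mm10 because the implied start sites of 5 of the 7 genes matched RefSeq GRCm38.p6 gene ends exactly (Scap lay 68 bp and Fdft1 3800 bp away). Whole read ends, 2 per tag, came back for 100% of the values (tolerance 0.005).

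TMM factors (0.825 and 1.04 in WT, 1.08 and 1.08 in GrnKO) came from regions kept by filterByExpr with a minimum of 10 tags. limma 3.58.1 (lmFit, eBayes with trend; R 4.3.3) was fitted to log2(value + 1) of the 4 H3K27ac libraries with genotype as its only term, with Benjamini-Hochberg adjustment over all features. edgeR 4.0.16 and DESeq2 1.42.0 on the recovered reads were alternatives, and the fits were tested on simulated data. All 7 genes are named, with their nearest, strongest and called regions, other pathway genes past the threshold, Grn, and the 3 genes most like Srebf2 and like the member with the smallest p. Some genes that enter the list counts are not reported here. Other regions and Ctsb were added after their values were seen. The members and lists were chosen with earlier results of these data known. Replicates are separate pools of mice, and the numbers in the titles do not pair them. WT replicates and GrnKO replicates differed by more than sampling noise (chi-square per degree of freedom 10.6 and 7.05).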

Additional observations from a re-analysis of the deposited data

How the results depend on the processing

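Of 450 alternative values, 375 kept their direction and side of the threshold or, for counts, stayed within 1.5 times, 40 lost the call, 9 gained it, 11 changed sign and 15 counts moved by more than 1.5 times. With 2 libraries per genotype, leaving out 1 library leaves 1 residual degree of freedom, and the lone library is assumed to vary like the other genotype. Leave-one-out log2 changes of the sums ran from 0.33 to 0.92 for Srebf2, 0.28 to 0.69 for Hmgcs1, 0.96 to 1.32 for Sqle, 1.14 to 1.33 for Insig1, -1.09 to -0.81 for Scap, 0.03 to 0.59 for Idi1 and 0.78 to 1.04 for Fdft1. Counts ran from 0 to 8 regions of the 7 genes, 1 to 5 of the 7 genes and 0 to 6 other pathway genes. Without the filter limma called 0 regions of the 7 genes (9 at an unadjusted p under 0.05), 1 of the 7 genes and 0 other pathway genes (3 at an unadjusted p under 0.05), where 3.72% of all genes were called, with Scap at -0.95 (adjusted p = 0.0575) and Fdft1 at 0.91 (adjusted p = 0.112). The authors' scaling alone gave Scap -0.73 (adjusted p = 0.0563) and 2 other pathway genes (11.7% of all genes called). DESeq2 gave 2 other pathway genes (15.9%). A threshold of 0.1 gave 3, of which 2 were higher and 1 lower. The share of all tested genes at 0.1 was not computed, so that count cannot be read against it. Within 1000 bp of the start, the Scap sum was 0.040, the Fdft1 sum -0.077, and 1 of the 7 genes was called. Changes of sign were otherwise at weak estimates: the Fdft1 start region was 0.14 under the authors' scaling and ran from -0.25 to 0.093 with 1 library left out. The Scap start region was -0.045 with a pseudocount of 5, -0.30 with edgeR, -0.30 with DESeq2 and from -0.98 to 1.05 with 1 library left out. The Idi1 region 244 bp after the start ran from -0.028 to 0.61 with 1 library left out. The causes were not tested. edgeR called 6925 of 80728 regions and 2143 of 15380 genes, DESeq2 7612 and 2444, against 7842 and 2225 with limma.

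Same-numbered libraries did not deviate together (correlation 0.03). With the replicate block 8 regions of the 7 genes (5 higher, 3 lower), 3 of the 7 genes and 1 other pathway gene were called, where 14.1% of all tested regions and 18.6% of all tested genes were, with adjusted p of 3.72e-05 for Insig1, 0.00222 for Scap and 0.0327 for Fdft1. TMM factors from gene sums, chosen after seeing the data, called 3 of the 7 genes and 14.4% of all tested genes. Depth limits Sqle, the start of Scap and the weak regions of Srebf2, where a few tags move a value.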

Other observations

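The fatty acid targets of SREBP1, the relative of SREBP2 that drives fatty acid synthesis, gave 8 tested genes of 9. Scd2, a stearoyl-CoA desaturase, rose, with 401 and 394 scaled tags in WT and 568 and 567 in GrnKO (limma log2 change 0.51, SE 0.13, adjusted p = 0.0190). Its paralog Scd1 had 41.1 and 32.7 in WT and 30.3 and 19.4 in GrnKO (log2 change -0.58, SE 0.41, adjusted p = 0.414). Fasn, fatty acid synthase, had 118 and 50.5 in WT and 59.1 and 75.9 in GrnKO, with overlap. The median change of the 8 was -0.10, and that of all tested genes -0.05. The Scd2 call was lost without GrnKO replicate 1 (adjusted p = 0.201) and without GrnKO replicate 2 (adjusted p = 0.168).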
